A study of Mus musculus with 12 samples.

Results

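The genes described here are 10 genes of the fibrotic scar in mouse spinal cord, 10 of the 46078 genes in the count table. They were chosen by name, with earlier results of these data known, and matched to the table's Ensembl identifiers through their symbols. They hold a growth factor of the transforming growth factor beta (TGF-beta) family (Tgfb1), its receptor (Tgfbr2) and a secreted protein named for its induction by TGF-beta (Tgfbi). The others are the matrix protein fibronectin (Fn1), 5 matricellular proteins (Thbs1, Thbs2, Postn, Ccn5 and Sparc) and a collagen crosslinking enzyme (Lox). All 10 passed the filter on low counts, which left 16527 genes tested.

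RNA was sequenced from 12 spinal cord samples in 4 groups of 3, all with C57BL6/cJ as the host strain. The 3 injured groups were spinal cord injury with a transplant of syngeneic mesenchymal stem cells (MSCs, stromal cells with the capacity to form several tissues), spinal cord injury with allogeneic MSCs, and spinal cord injury with no transplant named (SCI). Cord of mice labelled non-injured was the fourth group. Syngeneic cells come from a donor genetically matched to the host and allogeneic cells from a donor that is not. The donor strain, the time after injury, the sex and age of the mice, the length of cord taken and whether the SCI group received a control procedure were not stated in the labels. Nor did they state that replicates were separate mice, and p-values therefore reflect sample-to-sample spread that may be partly technical. The host tissue and the transplanted cells were not separated, so a transcript counted in a transplanted sample may come from either.

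TGF-beta is secreted in a latent complex that binds to the matrix through latent TGF-beta binding proteins and is freed by integrins, by proteases or by thrombospondin-1. The free ligand binds the type II receptor encoded by Tgfbr2, which recruits and activates the type I receptor encoded by Tgfbr1, and receptor-activated Smad proteins then move to the nucleus. In injured spinal cord, fibroblasts around vessels and in the meninges, together with infiltrating macrophages, form a fibrotic core rich in fibronectin, periostin and fibrillar collagen. Matricellular proteins are secreted proteins that modulate how cells respond to the matrix rather than building its fibres.

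Promoter windows, taken as the 250 bases before a RefSeq transcription start on GRCm38.p6, were found for Postn (2 starts), Tgfb1, Tgfbr2, Sparc, Tgfbi and Thbs2. Those of Postn, Tgfb1 and Thbs2 are shown because they belong to genes that rose together after injury and were picked, with the matches known, for their contrast in motifs. Capitals mark matches, on either strand, to a TATA box (TATAAA), a GC box (GGGCGG) or a CAGA box (CAGACA), the core of a Smad-responsive element. The Postn window is chr3:54360857-54361106 on the plus strand, the Tgfb1 window chr7:25686752-25687001 on the plus strand, and the Thbs2 window chr17:14694263-14694512 on the minus strand.
Postn: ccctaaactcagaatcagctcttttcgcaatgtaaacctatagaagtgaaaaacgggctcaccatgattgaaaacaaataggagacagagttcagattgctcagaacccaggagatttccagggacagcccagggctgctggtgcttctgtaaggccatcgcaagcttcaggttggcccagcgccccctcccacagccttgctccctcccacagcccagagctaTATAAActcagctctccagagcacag
Tgfb1: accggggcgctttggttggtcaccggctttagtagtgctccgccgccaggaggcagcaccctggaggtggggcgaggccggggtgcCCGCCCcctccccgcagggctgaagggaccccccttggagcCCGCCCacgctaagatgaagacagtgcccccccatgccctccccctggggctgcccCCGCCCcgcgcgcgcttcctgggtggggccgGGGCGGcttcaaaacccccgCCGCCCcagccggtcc
Thbs2: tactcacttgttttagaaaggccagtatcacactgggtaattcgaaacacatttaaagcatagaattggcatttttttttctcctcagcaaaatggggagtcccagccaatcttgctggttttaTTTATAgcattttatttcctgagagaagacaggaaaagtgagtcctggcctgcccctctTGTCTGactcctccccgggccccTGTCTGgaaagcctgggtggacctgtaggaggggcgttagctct
The Postn window held a TATA box whose first base lay at −26 from the start, and no other motif searched. Tgfb1, by contrast, had no TATA box but 5 GC boxes, at −164, −123, −67, −36 and −16, in a window of 75.2% G and C. Of these boxes, that at −36 alone was on the strand shown. The Thbs2 window held CAGA boxes at −67 and −44 and a TATA box at −126, all as matches on the opposite strand. Among the 7 windows, the CAGA box was found in those of Sparc and Thbs2, the TATA box in those of Postn and Thbs2, and the GC box in those of Tgfb1 and Tgfbi. No window held the Smad palindrome (GTCTAGAC) or the AP-1 site (TGANTCA). Of 32851 mouse promoter windows of the same length, 17.1% held the CAGA box, 12.4% the TATA box, 32.7% the GC box, 6.75% the AP-1 site and 0.167% the palindrome. A match describes these letters in this window and is not evidence of binding.

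Sequencing depth was 8705942 to 26151928 counts in genes per library. The levels below are CPM (counts scaled to a common library size) on library sizes scaled by the trimmed mean of M values (TMM), and called genes are those with adjusted p under 0.05 in edgeR's quasi-likelihood test with Benjamini-Hochberg adjustment over all genes tested. In keeping with the spinal cord label, neuronal and oligodendrocyte markers had counts in all 12 libraries. Non-injured replicate 3 stood apart, with mitochondrial genes at 10.9% of its counts (5.0% to 8.80% in the injured libraries, 8.18% and 7.46% in the other non-injured ones), and with the highest summed oligodendrocyte marker level, 75587 CPM. The sample titles of the transplanted groups run in number ranges separate from those of the other groups, so a batch of handling cannot be told apart from the transplant. In SCI against non-injured cord, the markers called higher were 9 of 9 for fibroblasts, 8 of 8 for monocytes and macrophages, 7 of 7 for microglia, 4 of 5 for meninges, 3 of 5 for astrocytes, 2 of 7 for mesenchymal stromal cells, 1 of 5 for Schwann cells and 1 of 4 tested for platelets. Those called lower were 4 of 5 for oligodendrocytes, 3 of 5 for neurons and 1 of 7 for stromal cells, and none of 5 endothelial or 5 pericyte markers was called.

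Injury was accompanied by higher levels of 8 of the 10 genes. Tgfb1, Tgfbr2, Tgfbi, Fn1, Thbs1, Thbs2, Postn and Ccn5 rose in SCI relative to non-injured cord, with the smallest fold change in Tgfbr2 (3.61-fold) and the largest in Ccn5, whereas Sparc and Lox did not pass the threshold. Of all genes tested, 16.6% were called higher in the same comparison. Shares over all genes are given as background only, since the 10 genes were chosen with earlier results of these data known. The median log2 fold change of the 10 genes was 2.26, against 0.0082 over all genes tested. In 9 of 10 genes every SCI library lay above every non-injured library, which held for 26.3% of all genes. In whole tissue, a larger number of cells of one type and more RNA per cell cannot be told apart. Beside these rises, the summed fibroblast markers came to 1119 to 1660 CPM in SCI and 132 to 256 CPM in non-injured cord, and the summed macrophage markers to 354 to 438 CPM in SCI and 29.0 to 37.4 CPM in non-injured cord. All 9 fibroblast and all 8 macrophage markers had counts in every library. The part of these cells in the changes of the 10 genes was not tested.

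Tgfb1 (ENSMUSG00000002603, chr7:25687002-25705077, plus strand, on GRCm38 with GENCODE M21), the ligand, had 11.3, 10.4 and 23.6 CPM in the syngeneic libraries, 20.3, 37.6 and 33.3 CPM in the allogeneic, 27.7, 30.1 and 23.4 CPM in SCI and 4.41, 4.5 and 7.28 CPM in non-injured cord. Non-injured libraries were the lowest 3, below syngeneic replicates 1 and 2, and syngeneic replicate 3 lay within the range of SCI. The log2 fold change of SCI over non-injured cord was 2.33 (SE 0.34, adjusted p 0.000811). Tgfbr2 (ENSMUSG00000032440, chr9:116084293-116175360, minus strand), the type II receptor, had 51.7, 39.4 and 92.6 CPM in syngeneic, 90.5, 126 and 119 CPM in allogeneic, 107, 118 and 92.9 CPM in SCI and 29.1, 23.1 and 35.9 CPM in non-injured cord. As for Tgfb1 the non-injured libraries were the lowest, with syngeneic replicate 3 just under the lowest SCI library. The change with injury was 1.85 (SE 0.28, adjusted p 0.000978). Tgfbi (ENSMUSG00000035493, chr13:56609523-56639562, plus strand), which encodes a secreted protein that binds collagen and integrins, had 17.4, 21 and 49.5 CPM in syngeneic, 27.6, 67.5 and 63.0 CPM in allogeneic, 45.7, 65.6 and 46.6 CPM in SCI and 7.85, 16.5 and 15.5 CPM in non-injured cord. Syngeneic replicates 1 and 2 sat just above the non-injured libraries, and SCI did not overlap with non-injured cord. It rose by 2.0 on the log2 scale with injury (SE 0.45, adjusted p 0.00801).

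Fn1 (ENSMUSG00000026193, chr1:71585520-71653200, minus strand), fibronectin, had 160, 103 and 308 CPM in syngeneic, 222, 343 and 360 CPM in allogeneic, 374, 370 and 344 CPM in SCI and 68.7, 54.8 and 78.9 CPM in non-injured cord. All injured libraries exceeded all non-injured ones, and the SCI libraries lay within a narrow band, 363 ± 16.2 CPM (SD, n = 3). The log2 fold change with injury was 2.43 (SE 0.34, adjusted p 0.000605). Its exons overlap those of the antisense gene Apol7d by 292 bases, and without a stated strand setting reads of the pair cannot be told apart. Thbs1 (ENSMUSG00000040152, chr2:118111876-118127133, plus strand), thrombospondin-1, an activator of latent TGF-beta that platelets and many other cells release, had 13.2, 5.15 and 19.7 CPM in syngeneic, 13.9, 18.2 and 37.6 CPM in allogeneic, 25.9, 28.7 and 23.2 CPM in SCI and 3.25, 7.25 and 6.77 CPM in non-injured cord. Syngeneic replicate 2 lay within the non-injured range, and allogeneic replicate 3 was the highest library. SCI over non-injured cord gave 2.19 (SE 0.49, adjusted p 0.00804), and 208 bases of its exons overlap an opposite-strand non-coding gene, Gm29233. Thbs2 (ENSMUSG00000023885, chr17:14665500-14694235, minus strand), thrombospondin-2, which limits collagen fibril size and vessel growth in mice, had 72.8, 50.7 and 117 CPM in syngeneic, 96.2, 128 and 106 CPM in allogeneic, 130, 137 and 146 CPM in SCI and 21.6, 22.4 and 26.5 CPM in non-injured cord. The groups of SCI and non-injured cord were far apart relative to their spread, and all transplanted libraries lay between them. Its change of 2.55 (SE 0.25, adjusted p 0.000128) had the smallest SE of the 8 genes called.

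Postn (ENSMUSG00000027750, chr3:54361109-54391037, plus strand), periostin, a matricellular protein made by scar fibroblasts, had 6.29, 7.27 and 33.5 CPM in syngeneic, 17.9, 53.7 and 55.4 CPM in allogeneic, 54.3, 42.2 and 33.1 CPM in SCI and 1.70, 0.687 and 1.49 CPM in non-injured cord. The non-injured libraries held 11 to 44 counts, and the syngeneic libraries split, with replicates 1 and 2 near 7 CPM and replicate 3 within the SCI range. The log2 fold change with injury was 5.01 (SE 0.74, adjusted p 0.000808), or 32.2-fold. Ccn5 (ENSMUSG00000027656, chr2:163820861-163833146, plus strand), a member of the CCN family of matricellular proteins that lacks the C-terminal domain of its relatives, had 25.1, 14.5 and 59.8 CPM in syngeneic, 45.7, 79.1 and 34.5 CPM in allogeneic, 39.6, 50.4 and 39.0 CPM in SCI and 0.0387, 0.125 and 0.205 CPM in non-injured cord. Detection in non-injured cord rested on 1, 2 and 4 counts, while each injured library held 354 or more. Summed counts of 2251 in SCI and 7 in non-injured cord gave a depth-scaled ratio of 378, with an exact 95% interval of 183 to 942 that covers counting error only, and the fit gave an adjusted p of 0.000111. Its fitted log2 fold change of 8.47 became 9.08 without non-injured replicate 3. Sparc (ENSMUSG00000018593, chr11:55394500-55423183, minus strand), a collagen-binding protein that astrocytes and endothelium also make, had 1681, 1641 and 2202 CPM in syngeneic, 1864, 2687 and 3091 CPM in allogeneic, 2336, 2441 and 2301 CPM in SCI and 1553, 1495 and 2063 CPM in non-injured cord. Although all SCI libraries exceeded all non-injured libraries, non-injured replicate 3 came close. The log2 fold change was 0.47 (SE 0.20, 95% interval 0.032 to 0.91), with an adjusted p of 0.107 that became 0.0391 when the fit held only the libraries of these groups and ranged up to 0.266 over the alternatives.

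Lox (ENSMUSG00000024529, chromosome 18), lysyl oxidase, which crosslinks collagen and elastin, had 4.15, 5.56 and 16.2 CPM in syngeneic, 7.85, 25.5 and 24.3 CPM in allogeneic, 30.8, 19.8 and 21.3 CPM in SCI and 1.24, 8.99 and 22.5 CPM in non-injured cord. The non-injured libraries spanned almost the whole range of the injured ones, and replicate 3 lay inside the SCI range. Fold change was 1.14 on the log2 scale (SE 0.78, 95% interval −0.56 to 2.84, adjusted p 0.311). Without non-injured replicate 3 it was 2.27, with an adjusted p of 0.0699, and the adjusted p ranged up to 0.563 over the alternatives. Summed markers of several cell types stood in the order of these Lox levels over non-injured replicates 1 to 3, with 132, 251 and 256 CPM for fibroblasts, 247, 1107 and 1825 CPM for Schwann cells, 32.1, 41.2 and 51.5 CPM for meninges, 218, 233 and 370 CPM for pericytes and 4.25, 5.31 and 6.92 CPM for platelets. Endothelial markers were at 234 CPM in replicates 1 and 2 and 333 CPM in replicate 3. The other lists did not follow this order. Stromal markers were at 862, 754 and 768 CPM, macrophage markers at 30.9, 29.0 and 37.4 CPM and microglial markers at 322, 290 and 416 CPM. Astrocyte markers were at 5518, 4816 and 6957 CPM, neuronal at 7505, 6987 and 7626 CPM and oligodendrocyte at 39161, 30986 and 75587 CPM. The part of any of these cells in the Lox level was not tested. An opposite-strand gene overlaps 30 bases of the Lox exons.

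**Figure D1:**
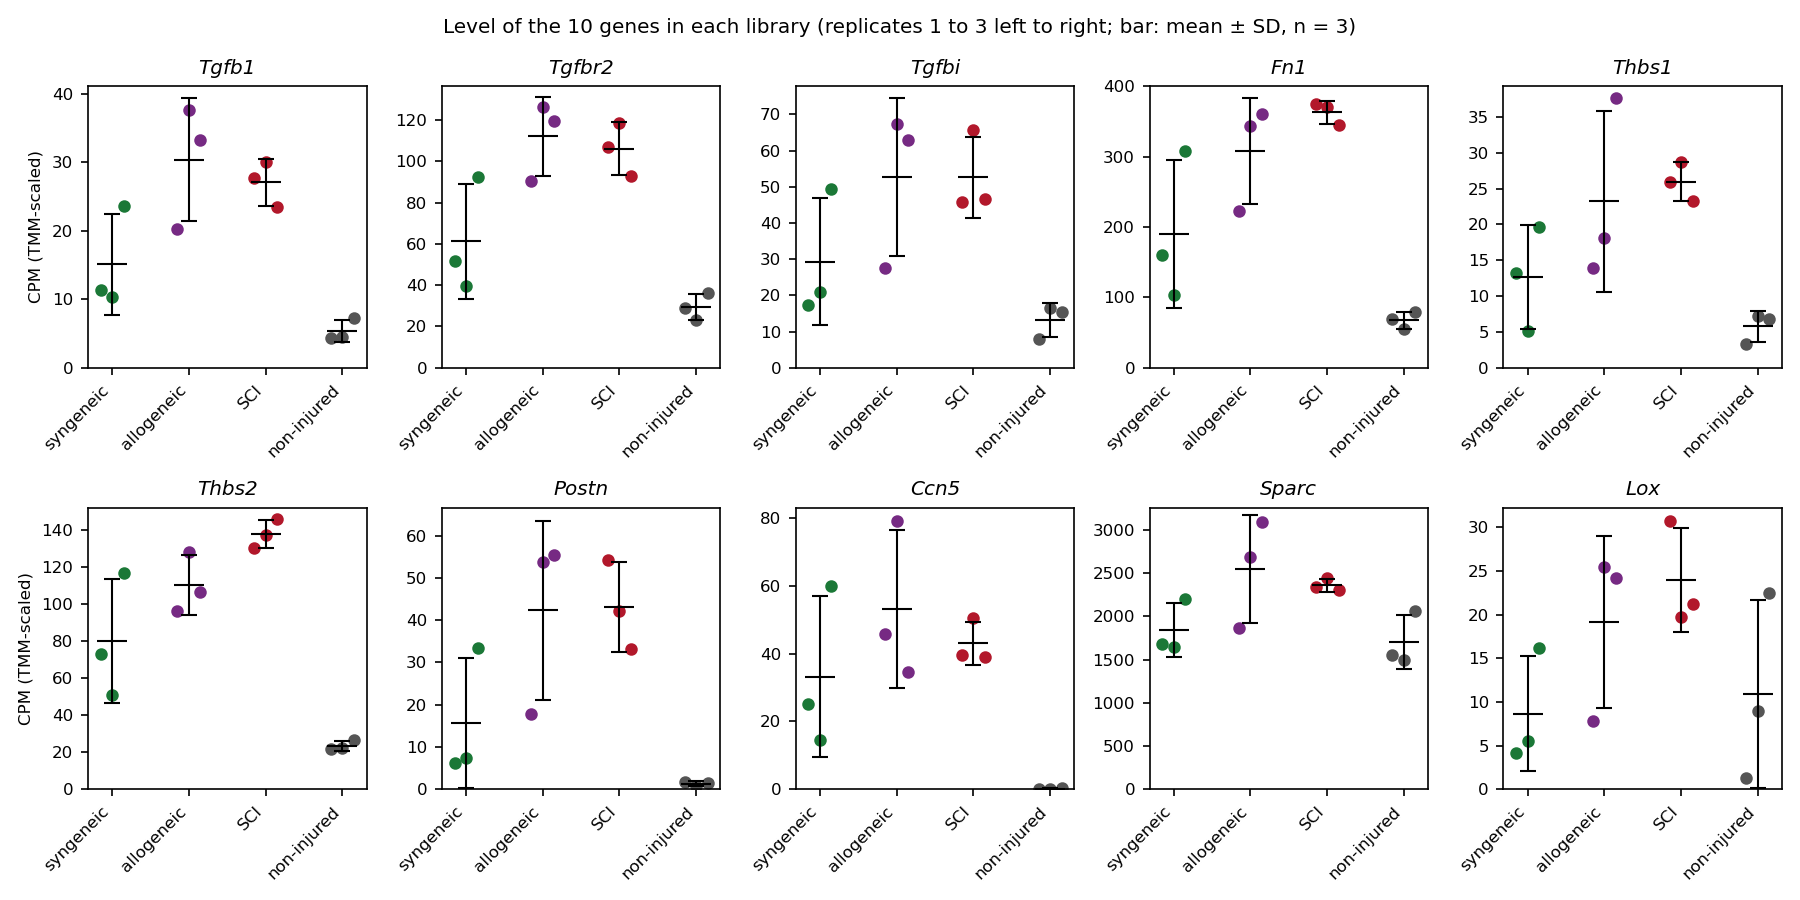
Level of each of the 10 genes in CPM (linear axes from 0) in the 3 libraries of each group, with a bar at the mean ± SD (n = 3). Syngeneic replicates 1 and 2 lie below the 3 SCI libraries in all 10 panels, and Lox is the gene whose non-injured libraries spread into the range of SCI.

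Scaled by exon length, Sparc was the most abundant of the 10 transcripts in every group, at 486 ± 82.7 CPM per kilobase in syngeneic, 672 ± 165 in allogeneic, 623 ± 19.2 in SCI and 450 ± 82.6 in non-injured cord (SD, n = 3). Ccn5 was at rank 3 in SCI, at 22.3 ± 3.35 CPM per kilobase, and at rank 10, the lowest, in non-injured cord, at 0.0639 ± 0.0433. Fn1 was second on this scale in both groups, at 31.1 ± 1.39 in SCI and 5.77 ± 1.03 in non-injured cord. Postn remained among the lower transcripts per length even after injury, at 4.96 ± 1.22 CPM per kilobase in SCI and 0.148 ± 0.0614 in non-injured cord.

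With a syngeneic transplant, none of the 10 genes was called against SCI by edgeR, DESeq2 or limma-voom, although the estimate was negative for all 10. The log2 fold changes of syngeneic over SCI ran from −0.36 for Sparc to −1.5 for Lox, with a median of −0.85, against 0.0041 over all genes tested. Of 16527 genes 6, 0.0363%, were called in either direction, and 13.5% had an unadjusted p below 0.05, as did 6 of the 10 genes. In 6 genes (Fn1, Thbs1, Thbs2, Sparc, Tgfbr2 and Lox) every syngeneic library lay below every SCI library, against 11.5% of all genes.

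By role, Tgfb1 averaged 15.1 ± 7.40 CPM in syngeneic and 27.1 ± 3.38 CPM in SCI cord, a log2 fold change of −0.85 (95% interval −1.56 to −0.14, adjusted p 0.322). Tgfbr2 averaged 61.2 ± 27.8 CPM in syngeneic and 106 ± 12.8 CPM in SCI cord, a change of −0.80 (−1.40 to −0.20, adjusted p 0.314). For both, the SD of the syngeneic group was more than that of SCI, and the syngeneic mean was raised by replicate 3. Among matrix genes, Fn1 averaged 190 ± 105 CPM in syngeneic and 363 ± 16.2 CPM in SCI cord (−0.93, −1.64 to −0.22, adjusted p 0.314). Thbs2 averaged 80.1 ± 33.7 CPM in syngeneic and 138 ± 7.70 CPM in SCI cord (−0.79, −1.31 to −0.27, adjusted p 0.312). Postn averaged 15.7 ± 15.4 CPM in syngeneic and 43.2 ± 10.7 CPM in SCI cord (−1.49, −2.79 to −0.18, adjusted p 0.332). Intervals of these 5 genes and of Thbs1 (−2.06 to −0.028) lay below 0, while those of Tgfbi, Ccn5, Sparc and Lox included 0. The intervals are for single genes and are not adjusted over the genes tested.

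The syngeneic group was divided. In the 9 injured libraries, syngeneic replicates 1 and 2 were the lowest pair for 10 of 10 genes, an order that 14.9% of all genes tested shared and that was noticed after the values were seen. Relative to the SCI mean, the levels of Postn in syngeneic replicates 1 to 3 were 14.6%, 16.8% and 77.5%, those of Lox 17.4%, 23.2% and 67.7%, and those of Tgfb1 41.8%, 38.3% and 87.3%. Ccn5 stood at 58.4%, 33.6% and 139%, so that replicate 3 exceeded every SCI library. Sparc, at 71.2%, 69.5% and 93.3%, showed the narrowest split. When syngeneic replicate 3 was left out, 5 of the 10 genes were called lower than in SCI, among 866 of 16876 genes called: Postn by −2.70 on the log2 scale (adjusted p 0.0189), Fn1 by −1.5 (0.0173), Tgfb1 by −1.35 (0.0231), Tgfbr2 by −1.26 (0.0173) and Thbs2 by −1.19 (0.0166). With syngeneic replicate 1 or 2 left out instead, none was called. Among the alternatives run, the 5 calls appeared in the fit without replicate 3 alone, and over the alternatives their adjusted p went up to 0.756.

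Markers of several cell types moved with this split. The summed fibroblast markers were 221, 264 and 1055 CPM in syngeneic replicates 1 to 3 and 1660, 1239 and 1119 CPM in SCI replicates 1 to 3. The summed macrophage markers were 174, 116 and 396 CPM in syngeneic and 367, 438 and 354 CPM in SCI libraries. Meningeal markers came to 56.3, 75.6 and 414 CPM in syngeneic and 730, 259 and 294 CPM in SCI libraries. Microglial markers were split in the same way, at 872, 683 and 1407 CPM in syngeneic and 1349, 1578 and 1398 CPM in SCI libraries. Neuronal markers ran the opposite way, at 6073, 6868 and 4849 CPM in syngeneic and 4737, 3841 and 4174 CPM in SCI libraries. Endothelial markers showed no such split, at 191, 214 and 215 CPM in syngeneic and 315, 274 and 260 CPM in SCI libraries. No marker of these 6 lists was called by edgeR between these groups. An unadjusted p below 0.05 was reached by 5 of 9 fibroblast, 4 of 8 macrophage, 3 of 5 meningeal, 3 of 7 microglial, 3 of 5 neuronal and 4 of 5 endothelial markers, against 13.5% of all genes. Oligodendrocyte markers, at 21680, 40551 and 24684 CPM in syngeneic replicates 1 to 3, and pericyte markers, at 208, 259 and 208 CPM, did not follow the split. Astrocyte (9613, 8435 and 11982 CPM), Schwann cell (407, 695 and 972 CPM) and platelet markers (5.11, 5.47 and 7.13 CPM) were lower in replicates 1 and 2 than in 3. Such a p was reached by 1 of 4 tested platelet markers and 0 of 5 oligodendrocyte, pericyte, astrocyte or Schwann cell markers. On the first principal component of all genes tested, which held 59.9% of the variance, syngeneic replicates 1 and 2 stood at 12.9 and 27.2, syngeneic replicate 3 at −27.4, the allogeneic libraries at −57.0 to −24.9, the SCI libraries at −39.0 to −29.6 and non-injured cord at 66.6 to 80.5. Mitochondrial genes made up 8.80% of the counts of syngeneic replicate 2 and at most 6.40% of those of the other injured libraries. The part of these cells and library properties in the differences of the 10 genes was not tested. Markers of mesenchymal stromal cells summed to 677 to 775 CPM in syngeneic, 660 to 740 CPM in allogeneic, 606 to 743 CPM in SCI and 754 to 862 CPM in non-injured cord, with 0 of 7 called by edgeR in either transplant comparison with SCI. Thy1, which neurons also express, made up most of this sum, at 534 ± 67.1 CPM in syngeneic and 405 ± 35.4 CPM in SCI cord (log2 fold change 0.40, unadjusted p 0.00856 in edgeR). The other stromal markers with an unadjusted p below 0.05 in edgeR had estimates of the opposite sign, with Lepr at −1.33, Prrx1 at −0.80 and Cxcl12 at −0.54 for syngeneic over SCI. In allogeneic against SCI 1 of 7, Nt5e at 0.57, had such a p.

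**Figure D2:**
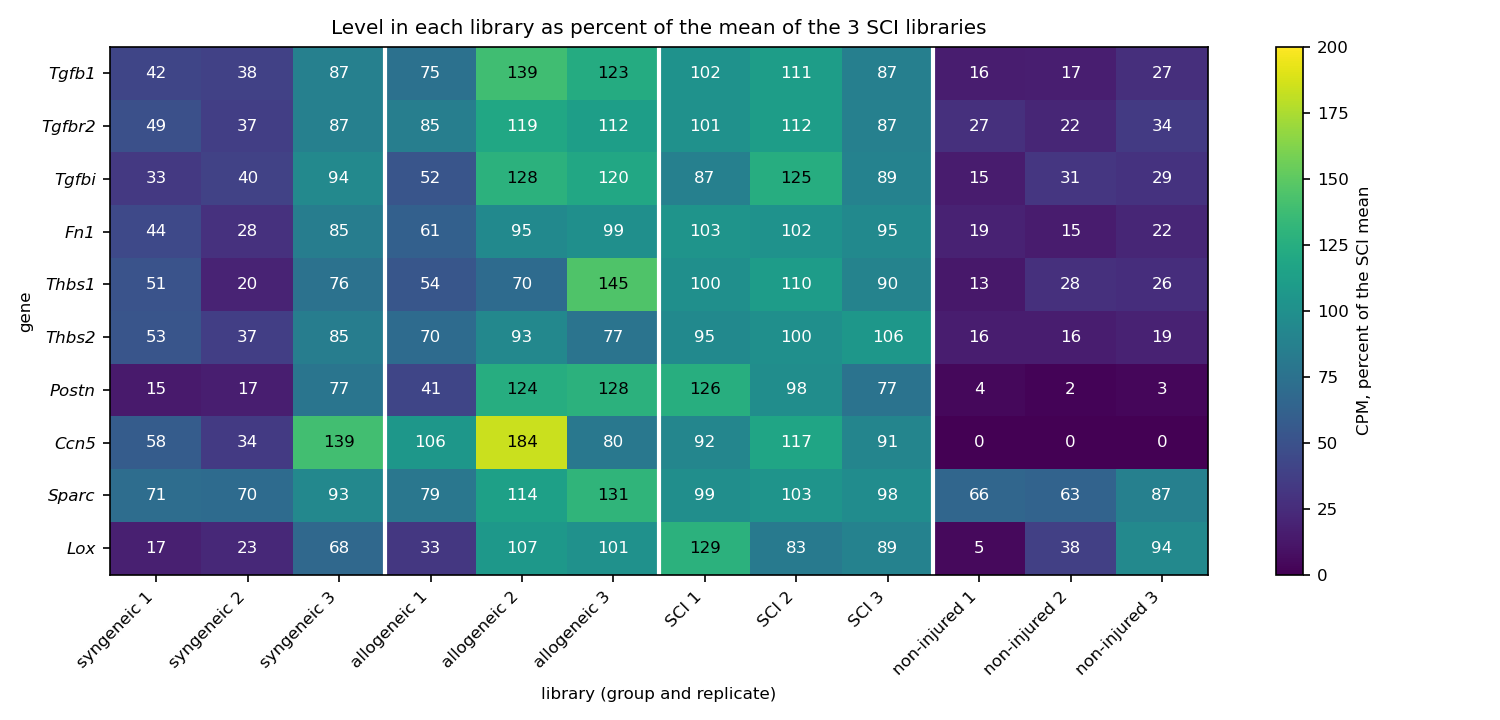
Level of each gene (rows) in each of the 12 libraries (columns) as a percentage of the mean of the 3 SCI libraries, given by colour and number. The columns of syngeneic replicates 1 and 2 and of allogeneic replicate 1 are darker than those of the other injured libraries in all rows but that of Ccn5 for allogeneic replicate 1, with Postn at 14.6%, 16.8% and 41.4%.

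With an allogeneic transplant, the 10 genes stayed close to SCI on average. None was called by edgeR, DESeq2 or limma-voom, and the log2 fold changes of allogeneic over SCI ran from −0.32 for Thbs2 to 0.29 for Ccn5, with a median of −0.017, against 0.0014 over all genes. In this comparison 31 genes, 0.188%, were called in either direction, and 2.94% of genes but none of the 10 had an unadjusted p below 0.05. Thbs2 was the only gene of the 10 whose allogeneic libraries, 96.2 to 128 CPM, all lay below the SCI libraries, 130 to 146 CPM, as was the case for 3.29% of all genes. Its log2 fold change was −0.32 (95% interval −0.84 to 0.19, adjusted p 0.9999).

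These averages do not show that allogeneic and SCI cord were alike. The 95% interval for Postn ran from −1.29 to 1.23, that for Lox from −2.0 to 1.35, and the narrowest, for Sparc, from −0.33 to 0.55. Allogeneic libraries varied more than SCI libraries for all 10 genes. The coefficient of variation (CV, SD as a percentage of the mean) ran from 14.8% for Thbs2 to 54.3% for Thbs1 in allogeneic cord and from 3.09% for Sparc to 24.9% for Lox in SCI cord, and 77.2% of all genes likewise had the larger CV in allogeneic cord. In syngeneic cord it ran from 17.0% for Sparc to 98.3% for Postn, again above SCI for all 10 genes, as for 74.7% of all genes. Allogeneic replicate 1 was the library at rank 3 from the lowest among the injured libraries for 9 of the 10 genes, all but Ccn5, with Postn at 41.4%, Lox at 32.8% and Tgfbi at 52.5% of the SCI mean. Its summed fibroblast markers were also low, at 480 CPM, against 1567 and 1348 CPM in allogeneic replicates 2 and 3. This rank was noticed after the values were seen, and the share of all genes that had it was not counted.

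Set directly against each other, the transplants again gave no called gene among the 10 with any of these tools, with 101 genes, 0.611%, called overall by edgeR. An unadjusted p below 0.05 was reached by 4 of the 10 genes and by 14.4% of all genes. All 10 estimates of syngeneic over allogeneic were negative, from −0.46 for Thbs2 to −1.45 for Postn, with a median of −0.86 against 0.017 over all genes. Both components of the signalling pair were among the smallest p-values of the 10, with Tgfb1 at −1.01 (95% interval −1.72 to −0.30, adjusted p 0.237) and Tgfbr2 at −0.88 (−1.48 to −0.27, adjusted p 0.237). In each of the 10 genes the ranges of the 2 transplanted groups overlapped, and 7.03% of all genes had all syngeneic libraries below all allogeneic ones. Without syngeneic replicate 3, 7 of the 10 (Postn, Fn1, Thbs2, Ccn5, Tgfb1, Tgfbi and Tgfbr2) were called lower in syngeneic cord, among 1178 of 16876 genes. Postn then stood at −2.68 (adjusted p 0.00934) and Tgfbr2 at −1.35 (adjusted p 0.00634), with adjusted p up to 0.739 and 0.696 for these genes over the alternatives. Of the macrophage markers, Ly6c2, a monocyte surface antigen with near-identical copies, was called lower in syngeneic than in allogeneic cord, at −3.70 on the log2 scale (adjusted p 0.00657). Its levels were low, at 0.411 ± 0.200 CPM in syngeneic, 5.30 ± 3.06 CPM in allogeneic and 0.831 ± 0.200 CPM in SCI cord. Summed counts were 24, 207 and 43 in these groups, so the allogeneic group stood above both others.

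**Figure D3:**
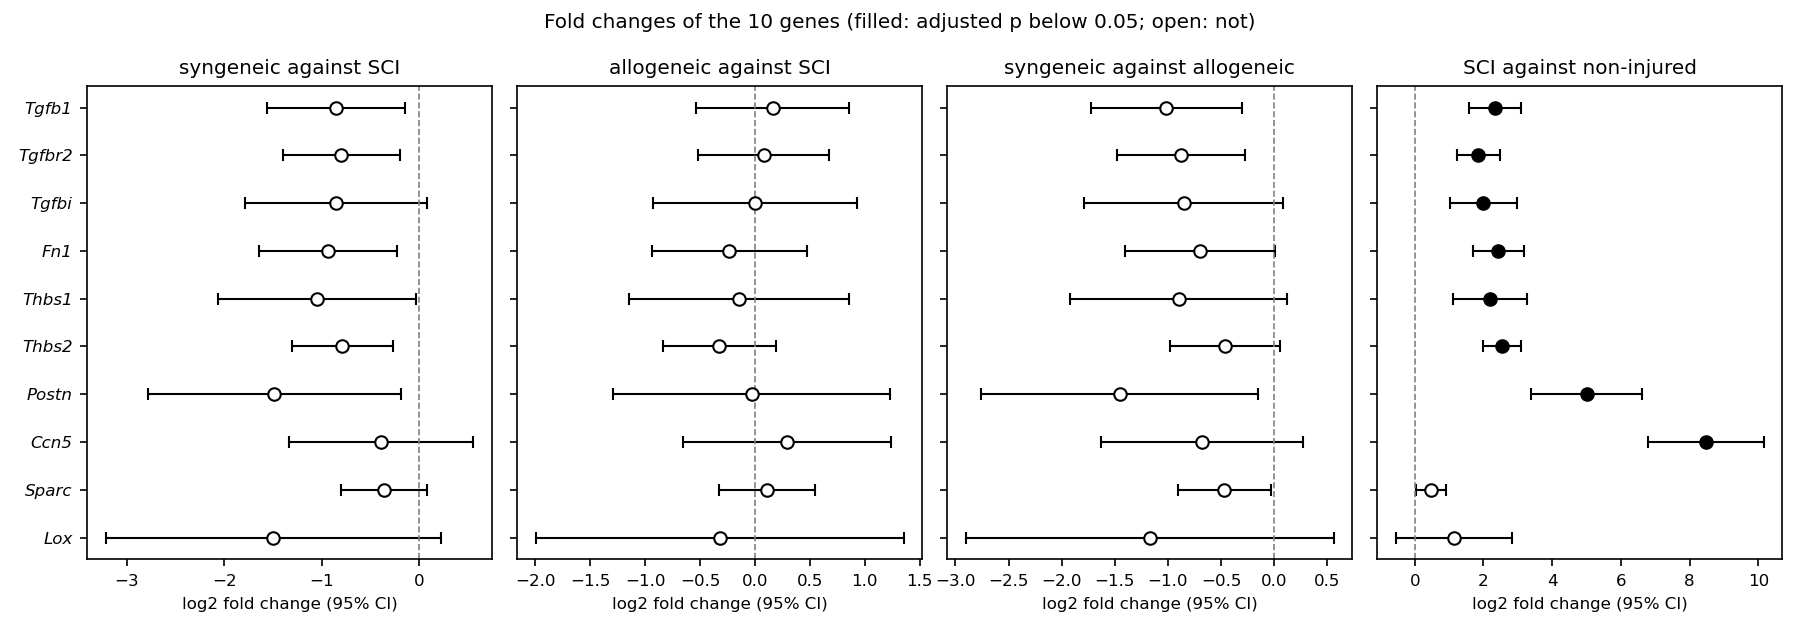
Log2 fold changes of the 10 genes with 95% confidence intervals in 4 comparisons, each named first group over second, with filled points for an adjusted p below 0.05. Only the panel of SCI against non-injured cord has filled points, 8 of 10, and in the panels with the syngeneic group every point lies left of 0.

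Compared with non-injured cord, both transplanted groups held raised levels of several of the genes. In the syngeneic group 5 genes rose, where 4.92% of all genes were called higher: Ccn5 (summed counts of 1859 against 7, a ratio of 259 with an exact 95% interval of 125 to 645 for counting error only, adjusted p 0.000531), Thbs2 (1.77, SE 0.25, adjusted p 0.00215), Postn (3.52, SE 0.73, adjusted p 0.016), Fn1 (1.49, SE 0.33, adjusted p 0.0225) and Tgfb1 (1.48, SE 0.34, adjusted p 0.0275). Tgfbr2 missed the threshold at 1.05 (SE 0.28, adjusted p 0.0512). It was called in 3 of the 12 alternatives run, and its adjusted p ranged from 0.00527 to 0.220 over the alternatives. Ccn5 and Thbs2 were called whichever library was left out, but the count of called genes was not stable. It was 2 without non-injured replicate 1 or 2, 3 without syngeneic replicate 3, 4 without non-injured replicate 3 and 7 without syngeneic replicate 2. Calls among all genes, in either direction, likewise ranged from 358 to 1752 when 1 library was left out. The fitted log2 fold change of Ccn5, 8.08, was 7.32 without syngeneic replicate 3 and 8.68 without non-injured replicate 3, and that of Postn was 2.31 without syngeneic replicate 3.

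In the allogeneic group 8 genes rose, all but Sparc and Lox, where 16.7% of all genes were called higher. The comparisons with non-injured cord share the non-injured libraries. Ccn5 had 2153 summed counts against 7, a ratio of 411 (199 to 1023, counting error only) and a fitted log2 fold change of 8.76 that became 9.38 without non-injured replicate 3, and Postn rose by 4.98 (SE 0.74, adjusted p 0.000672). Tgfb1 rose by 2.49 (SE 0.35, adjusted p 0.000444), Thbs2 by 2.23 (SE 0.25, adjusted p 0.000129) and Fn1 by 2.19 (SE 0.34, adjusted p 0.000818). Thbs1 rose by 2.04 (SE 0.49, adjusted p 0.0106), but not without allogeneic replicate 3 (1.5, adjusted p 0.0525), the highest over the alternatives. Sparc, at 0.58 (SE 0.20, adjusted p 0.0543), was called without allogeneic replicate 1 (adjusted p 0.00986) and without non-injured replicate 3 (adjusted p 0.0284), and its adjusted p ranged from 0.00986 to 0.171 over the alternatives.

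Other genes of the same pathways were followed in 6 lists, also chosen with earlier results of these data known. Among ligands, latent binding proteins and regulators of the activation of TGF-beta, 10 of 14 tested genes rose with injury and none fell. Among the 10 was Emilin1, which limits processing of the TGF-beta precursor and was named after its value was seen (2.59, SE 0.55, adjusted p 0.00642). For this and the following lists, 16.6% of all genes tested were called higher and 9.26% lower in SCI against non-injured cord. Nrros, which tethers latent TGF-beta to myeloid cells, averaged 17.2 ± 2.47 CPM in SCI and 3.74 ± 0.37 CPM in non-injured cord (log2 fold change 2.20, SE 0.32, adjusted p 0.000771). Itgb5, an integrin subunit that can activate latent TGF-beta, averaged 206 ± 28.6 CPM in SCI and 51.0 ± 6.45 CPM in non-injured cord (2.01, SE 0.29, adjusted p 0.000749). Of 16 receptors, Smads and feedback regulators, 9 rose and none fell. Tgfbr1, the type I receptor that pairs with Tgfbr2, averaged 140 ± 9.49 CPM in SCI and 39.7 ± 9.87 CPM in non-injured cord (1.82, SE 0.24, adjusted p 0.000391). Tgif1, a repressor of Smad-driven transcription, averaged 14.7 ± 1.01 CPM in SCI and 2.53 ± 0.569 CPM in non-injured cord (2.54, SE 0.31, adjusted p 0.000303). Smad7, the inhibitory Smad induced by the pathway and looked at after its value was known, was not called, at −0.15 (adjusted p 0.522).

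Genes known to be induced by TGF-beta were called higher in 7 of 10 cases with injury, 3 of them collagen genes that are also in the fibroblast marker list. Timp1, an inhibitor of matrix metalloproteinases, averaged 26 ± 3.03 CPM in SCI and 0.421 ± 0.347 CPM in non-injured cord (5.96, SE 0.54, adjusted p 0.000111). Ccn1, a matricellular relative of Ccn5, averaged 97.4 ± 12.7 CPM in SCI and 16.8 ± 5.69 CPM in non-injured cord (2.54, SE 0.35, adjusted p 0.000517). The 3 that were not called, named after their values were seen, were Ccn2 (1.48, adjusted p 0.0802), Tagln (0.91, adjusted p 0.182) and Acta2 (−0.14, adjusted p 0.852), the last a marker of myofibroblasts and vascular smooth muscle.

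Among other matricellular genes 5 of 12 tested rose, with tenascin-C (Tnc) at 2.52 (SE 0.37, adjusted p 0.000832) and Smoc1, a relative of Sparc, at 0.99 (SE 0.15, adjusted p 0.00083). Of the genes for collagen processing and crosslinking, 10 of 13 rose. P4ha3, a subunit of prolyl hydroxylase, averaged 58.2 ± 4.70 CPM in SCI and 13.5 ± 1.59 CPM in non-injured cord (2.11, SE 0.22, adjusted p 0.000157). Loxl3, a relative of Lox, averaged 11.1 ± 1.52 CPM in SCI and 4.12 ± 0.425 CPM in non-injured cord (1.43, SE 0.21, adjusted p 0.000807). Of 10 receptors for fibronectin, periostin, thrombospondins or collagen, 7 rose. The collagen receptors Ddr1 and Ddr2, named after their values were seen, were among the 7. Itga5, the integrin subunit of the main fibronectin receptor, rose by 2.82 (SE 0.41, adjusted p 0.000716). The heparan sulphate proteoglycan Sdc4 rose by 1.14 (SE 0.19, adjusted p 0.00161). None of the 6 lists held a gene called lower. Tnc, Loxl3, Ccn2, Ddr1, Ddr2 and Tagln share 176, 535, 665, 216, 90 and 1349 exon bases with genes on the opposite strand. For Tagln this is out of 1988 exon bases. The counts of all these genes are uncertain in the same way as those of Fn1.

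In the transplanted groups, no gene of the 6 lists was called by edgeR against SCI or between the transplants. Of 75 tested genes, 28 had an unadjusted p below 0.05 in syngeneic against SCI, where 13.5% of all genes did. The count was 2 in allogeneic against SCI, where 2.94% of all genes did, and 24 in syngeneic against allogeneic cord, where 14.4% did. The list medians of syngeneic over SCI ran from −0.34 for receptors, Smads and feedback regulators to −0.96 for the TGF-beta targets, and those of allogeneic over SCI from −0.21 for the targets to 0.13 for the other matricellular genes. Ccn1 had 31.2 ± 14.4 CPM in syngeneic, 45.4 ± 12.6 CPM in allogeneic and 97.4 ± 12.7 CPM in SCI cord. Neither the log2 fold change of −1.65 for syngeneic over SCI (adjusted p 0.155) nor that of −1.11 for allogeneic over SCI (adjusted p 0.779) passed the threshold, although every transplanted library lay below every SCI library. Against non-injured cord, 13 of the 75 listed genes were called higher in the syngeneic group, where 4.92% of all genes were, and 47 in the allogeneic group, where 16.7% of all genes were.

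**Figure D4:**
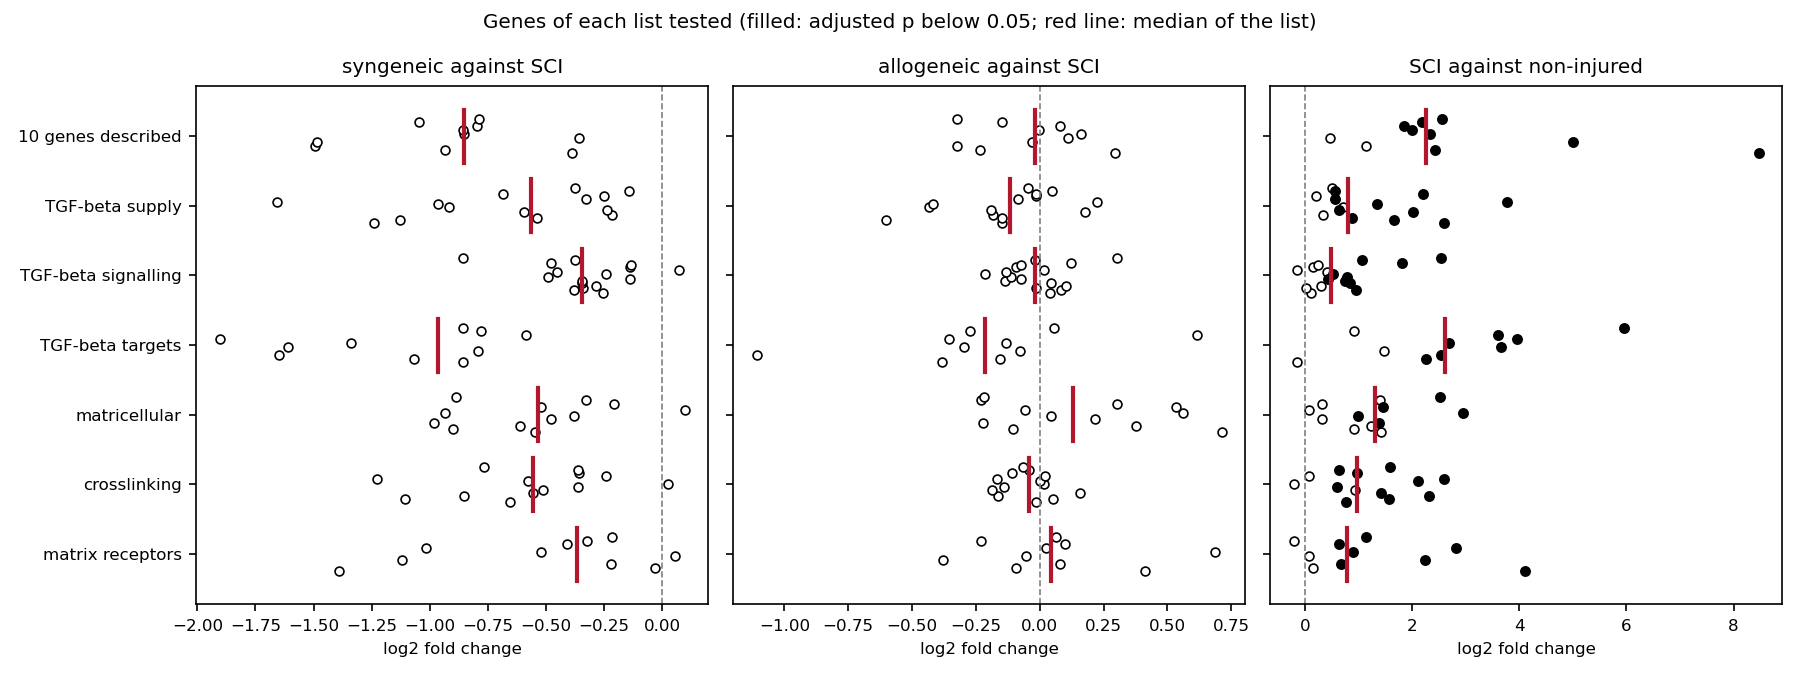
Log2 fold change of each tested gene of the 10 genes described and of the 6 pathway lists in 3 comparisons, each named first group over second, with filled points for an adjusted p below 0.05 and a red line at the median of the list. No point is filled in the panels of the transplants, and in that of SCI against non-injured cord all filled points are on the right of 0.

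The genes whose profile over the 12 libraries was most like the mean profile of the 10 genes were Kcne1l, Slc39a1, Rcsd1, Plp2, Tmem176b and Cmtm3. Likeness was measured as the mean absolute difference of standardised log2 CPM, which was 0.0795 to 0.0971 for these 6 and had a median of 1.09 over 13738 genes. Over the 9 injured libraries alone the most alike were Myof, Il6ra, Colec12, Syk, Serping1 and Pros1, at 0.0729 to 0.0985 against a median of 1.05. Among the 10 genes themselves, Tgfb1 and Tgfbr2 were the closest pair over the injured libraries, at 0.145, followed by Postn and Lox at 0.163 and Fn1 and Thbs2 at 0.164. Ccn5 and Lox were the farthest pair, at 0.731. For the marker lists, the mean profile of each list was itself standardised over the 9 injured libraries before the differences were taken. These distances are therefore not on the scale of those to the mean profile of the 10 genes. Lox (0.0986), Postn (0.112), Tgfbi (0.229) and Fn1 (0.247) were nearest to the profile of the fibroblast markers. Tgfbr2 (0.127) and Tgfb1 (0.174) were nearest to the macrophage markers, with Tgfb1 at 0.182 from the microglial ones. Ccn5 (0.330) and Thbs2 (0.343) were nearest to the astrocyte markers, and Sparc (0.251) and Thbs1 (0.370) to the platelet markers. The platelet profile rests on 4 tested genes with low counts, 64 to 581 each over the 12 libraries. Sparc was next nearest to the meningeal (0.306) and fibroblast (0.318) markers. All of these distances are descriptions over libraries that share the division of the syngeneic group.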

How the data were processed

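The deposited values are raw counts of reads per Ensembl gene, 1 column for each of 12 libraries, as the authors left them, with no normalization. Per the labels' protocols, column-purified, DNase-treated RNA went into a stranded, poly(A)-selecting library kit. Per the submitters' processing notes, which assign no roles, the build was GRCm38 and the tools were featureCounts 1.5.1, STAR 2.5.1, Trim Galore 0.4.1, StringTie 1.3.3, Picard and FastQC 0.11.5. Strandedness of counting, annotation version and multi-mapping policy: not given in the sources used here, so overlapping genes are uncertain.

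Symbols were matched for 45143 of 46078 identifiers, and positions and exon lengths come from GENCODE M21. Genes were kept with filterByExpr (minimum count 10, minimum total 15) and tested with edgeR 4.0.16 in R 4.3.3 (TMM factors, robust quasi-likelihood fit, all 12 libraries, 1 mean per group, 8 residual degrees of freedom). Benjamini-Hochberg adjustment covered 16527 genes in each of 6 comparisons. Fold changes are the first named group over the second, SEs were derived from the F statistic, and log2 CPM used a prior count of 2. Alternatives were DESeq2 size factors, library totals, no filter, DESeq2 1.42.0, limma-voom (limma 3.58.1), fits on the 2 groups compared and leaving out each library. The scripts were tested on simulated counts. Replicate numbers follow the order of the samples and pair nothing.

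The 10 genes, the pathway lists and the marker lists were chosen with earlier results of these data known. Named from each pathway list are the 2 genes with the smallest p among those called in each direction in SCI against non-injured cord, and up to 3 called genes in other comparisons, not all of which are printed. Precision is limited by 3 libraries per group and, for Ccn5 and Postn in non-injured cord, by low counts.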

Additional observations from a re-analysis of the deposited data

How the results depend on the processing

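The 8 genes called in SCI against non-injured cord were called under every alternative run. When the fit held only the 2 groups compared, Sparc was called as well. The number of the 10 genes called higher in syngeneic against non-injured cord was 5, but 2 with no filter on low counts, 3 with limma-voom and 2 with only the 2 groups compared. Leaving out 1 library gave 8 in each case for SCI against non-injured cord, 0 to 5 for syngeneic against SCI, 0 to 0 for allogeneic against SCI, 0 to 7 for syngeneic against allogeneic, 2 to 7 for syngeneic against non-injured and 7 to 9 for allogeneic against non-injured. Over all genes, calls in syngeneic against SCI were 6, against 18 with no filter, 126 with DESeq2, 10 with limma-voom and 3 with only the 2 groups compared. In allogeneic against SCI they were 31, against 50, 71 and 17 with no filter, DESeq2 and only the 2 groups compared. In syngeneic against allogeneic they were 101, against 358 with DESeq2 and 21 with only the 2 groups compared. Against non-injured cord, the syngeneic group had 883 (1409 with DESeq2, 172 with only the 2 groups compared) and the allogeneic group 4112 (2738 with only the 2 groups compared). Leaving out 1 library gave 2336 to 3974 genes for SCI against non-injured cord, 0 to 866 for syngeneic against SCI, 0 to 29 for allogeneic against SCI, 24 to 1178 for syngeneic against allogeneic, 358 to 1752 for syngeneic against non-injured and 2613 to 4669 for allogeneic against non-injured. No called value of the 10 genes changed sign under these alternatives. In allogeneic against SCI, the log2 fold change of Tgfbi was 0.012 with DESeq2 size factors, 0.0023 with library totals, 0.015 with DESeq2 and 5.79e-05 with only the 2 groups compared. Leaving out 1 library in that comparison gave −0.21 to 0.31 for Tgfbi, −0.27 to 0.34 for Postn, −0.69 to 0.12 for Thbs1, −0.56 to 0.057 for Lox, −0.015 to 0.21 for Tgfbr2, −0.10 to 0.54 for Ccn5, −0.011 to 0.39 for Tgfb1 and −0.043 to 0.29 for Sparc. In syngeneic against non-injured cord, Lox was 0.27 with limma-voom and −1.16 to 0.76 with 1 library left out, and Sparc −0.060 to 0.24. The cause of these changes was not tested, and a fit on 2 groups also has fewer libraries. No paired analysis was possible because the labels give the groups no shared replicate numbers. Low counts limit the precision of the Ccn5 level in non-injured cord, which rests on 7 counts.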
